A study of Drosophila melanogaster with 6 samples.

Results

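BEAF-32 peaks without ROW are the places where the insulator protein BEAF-32 was enriched on chromatin of Drosophila melanogaster S2 cells while the chromatin protein ROW had no peak there and no summit close by. They were chosen by the measured ROW peaks: a BEAF-32 peak on the arms 2L, 3L or 3R qualified if its interval shared no base with a ROW peak and no ROW summit lay within 1000 bp of its own summit. Of 2767 BEAF-32 peaks on these arms 417 qualified, which is 15.1% (95% Wilson interval 13.8 to 16.5). They are set against the 2290 BEAF-32 peaks that overlapped a ROW peak (82.8%). The count depends on how weak a ROW peak is admitted: with ROW peaks of at least 4-fold only, 1158 peaks would qualify. The remaining 60 peaks touched no ROW peak but had a ROW summit within 1000 bp. All samples came from S2 cells with no treatment named in the labels, a cultured line of embryonic origin with macrophage-like properties. Every sample title begins with the prefix con. There were 3 samples immunoprecipitated with an antibody against BEAF-32 and 3 with one against ROW, assigned by their titles. The label for the antibody disagrees in part: after BEAF it gives a different number in each of the 3 samples, so which antibody each sample had rests on its title. The files hold 1 peak list per antibody for its 3 samples, so there is no value per sample and no spread between replicates. All statements below therefore describe these lists, with no test, and intervals cover counting error only. Read depth is unknown. Agreement between the arms is given as a description, since the arms share the same libraries.

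BEAF-32 (boundary element-associated factor) recognises clusters of a short CGATA sequence through its BED-type zinc fingers. It is known for sitting near the start sites of broadly expressed genes and at borders between chromatin domains. ROW (relative of WOC) carries zinc fingers and AT-hooks and forms a complex with WOC and the heterochromatin protein HP1c, a variant found in active euchromatin. A BEAF-32 site without ROW is thus a candidate place where the insulator protein is bound apart from that complex, within what the peak lists can detect.

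BEAF-32 peaks without ROW were weaker than those that overlapped ROW, but they spanned nearly the same range of strengths. Strength is the fold enrichment at the summit over local background. Its median was 5.46 at peaks without ROW (interquartile range 3.48 to 11.4, n = 417) and 8.56 at overlapping peaks (3.91 to 19.4, n = 2290), a log2 difference of -0.65. The weakest peak without ROW had a fold enrichment of 1.70 and the strongest one of 31.2, while overlapping peaks ran from 1.47 to 33.5. The log2 difference was -0.56 on 2L, -0.49 on 3L and -0.82 on 3R, so each arm showed the same direction.

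The gap between both classes lay at the strong end. On the 3 arms 30.5% of all BEAF-32 peaks reached 16-fold. Among peaks without ROW there were 73 of that strength, 17.5% (14.2 to 21.4), and among overlapping peaks 767, which is 33.5% (31.6 to 35.5). Read the other way, the share of BEAF-32 peaks without ROW was 18.2% below 4-fold, 18.6% from 4-fold to 8-fold and 16.4% from 8-fold to 16-fold. At 16-fold or more it was 8.64% (6.93 to 10.7). By quartile of strength over all BEAF-32 peaks the shares were 18.3% in the weakest, then 19.2%, 14.5% and 8.24% in the strongest, above 18.3-fold. At 16-fold or more the share was 9.09% on 2L, 8.73% on 3L and 8.26% on 3R, the lowest class on each arm. Below 16-fold the arms did not keep a common order. From the weakest class up the shares were 16.7%, 21.5% and 15.3% on 2L, 16.9%, 18.7% and 20.6% on 3L, and 20.8%, 16.5% and 13.8% on 3R.

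**Figure D1:**
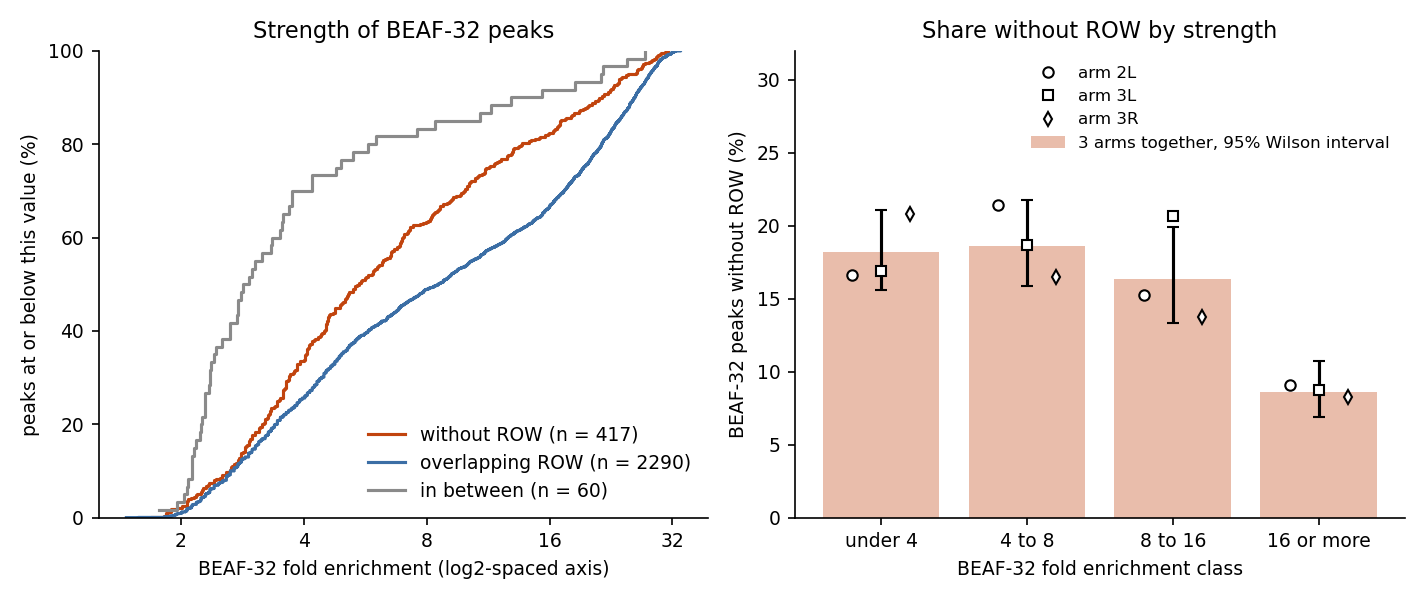
Left, the cumulative percentage of BEAF-32 peaks (y axis) at or below each fold enrichment (x axis, log2-spaced), for peaks without ROW, peaks overlapping ROW and the 60 peaks in between. Right, the percentage of BEAF-32 peaks without ROW in each strength class, with bars for the 3 arms together, 95% Wilson intervals and open symbols for single arms; the class of 16-fold or more stands at 8.64%, below the other 3 classes.

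The 60 peaks in between, which lay beside a ROW peak without touching it, were weaker than either class. Their median fold enrichment was 2.89 (2.30 to 4.85), and 70.0% of them were below 4-fold, against 33.6% of peaks without ROW and 25.6% of overlapping peaks. Only 5 of the 60 reached 16-fold. Leaving this narrow rim out of the peaks without ROW, as the choice did, therefore removed mostly weak peaks.

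Peaks without ROW were also narrower, and this held within every class of strength. Median width was 445 bp (interquartile range 358 to 553) without ROW and 589 bp (450 to 698) with ROW, a log2 difference of -0.40. It was -0.40 on 2L, -0.33 on 3L and -0.44 on 3R. Peaks of at least 700 bp made up 21.4% of all BEAF-32 peaks. Only 19 peaks without ROW were that wide, 4.56% (2.94 to 7.01), against 570 overlapping peaks, which is 24.9% (23.2 to 26.7). Below 4-fold the median widths were 338 bp without ROW and 396 bp with ROW. From 4-fold to 8-fold they were 414.5 bp and 499 bp, and from 8-fold to 16-fold 512.5 bp and 587 bp. At 16-fold or more they were 578 bp without ROW and 658 bp with ROW. In that strongest class 44 of 73 peaks without ROW, 60.3%, were 500 to 599 bp wide. Of the 767 overlapping peaks of that strength 20.1% had this width and 36.0% reached 700 bp, a width that 4 of the 73 peaks without ROW had. A wider interval meets a ROW peak more easily by construction, and the part of this in the difference was not tested.

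Compared at like width, the difference in strength differed in sign between width classes. Among peaks of 400 to 499 bp, the median fold enrichment was 6.59 without ROW (n = 95) and 4.89 with ROW (n = 331), a log2 difference of 0.43. Among those of 500 to 599 bp it was 15.1 without ROW (n = 97) and 12.0 with ROW (n = 469), a difference of 0.33. Below 400 bp the differences were small, 0.15 under 300 bp and 0.12 from 300 to 399 bp. From 600 to 699 bp the medians were 16.7 without ROW (n = 44) and 21.5 with ROW, a difference of -0.36. At 700 bp or more they were 7.71 without ROW (n = 19) and 15.5 with ROW (n = 570), a difference of -1.01. Within the middle range of width, 419 to 675 bp, the medians of 10.7 without ROW and 11.0 with ROW gave -0.04. Width and strength rose together in both classes, with Spearman's rho of 0.69 across 417 peaks without ROW and 0.54 across 2290 overlapping peaks. The overlapping class has an additional arm of strong, wide peaks that is nearly empty among peaks without ROW.

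**Figure D2:**
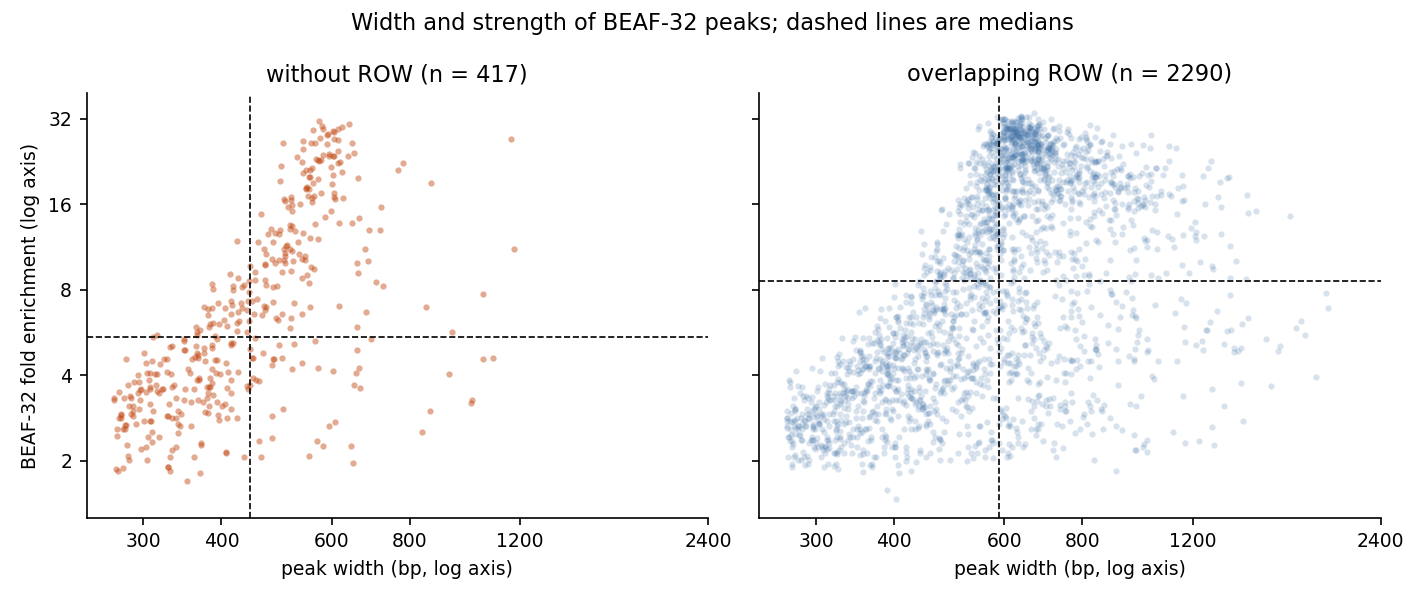
Fold enrichment (y axis, log scale) against peak width in bp (x axis, log scale) for each BEAF-32 peak without ROW (left) and overlapping ROW (right); dashed lines are the medians, 445 bp and 5.46-fold on the left, 589 bp and 8.56-fold on the right. Points right of 700 bp number 19 on the left and 570 on the right.

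Most BEAF-32 peaks without ROW still lay within a few kilobases of a ROW peak. Because the choice used this distance, it is given as a description. The median distance to the nearest ROW summit was 2736 bp (interquartile range 1734 to 4752). It was 2718 bp on 2L, 2735 bp on 3L and 2809 bp on 3R. There were 138 peaks at 1 to 2 kb (33.1%), 179 at 2 to 5 kb (42.9%), 66 at 5 to 10 kb (15.8%), 20 at 10 to 20 kb (4.80%) and 14 farther than 20 kb (3.36%). The nearest ROW summit lay at lower coordinates in 217 cases and at higher ones in 200. Median BEAF-32 fold enrichment was 4.48 at 1 to 2 kb, 5.56 at 2 to 5 kb and 7.96 at 5 to 10 kb from ROW, then 5.46 at 10 to 20 kb and 6.27 beyond. Strength thus did not climb steadily with distance, and Spearman's rho between both was 0.18 across the 417 peaks.

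The distance to the nearest ROW peak that a BEAF-32 peak did not overlap was also taken in both classes. For overlapping peaks this leaves out the ROW peaks they overlap. For peaks without ROW it is the distance that the choice used, so it exceeded 1000 bp in all of them. Of 2290 overlapping peaks, 90 had it at 1 kb or less. It is therefore given as a description, and the part of the choice in the differences was not tested. The median was 2736 bp for peaks without ROW and 3902.5 bp for overlapping peaks (interquartile range 2143.5 to 6586). Such a ROW summit lay within 5 kb of 76.0% of peaks without ROW, of 59.0% of overlapping peaks and of 62.45% of all BEAF-32 peaks. Within 20 kb the shares were 96.6% and 96.8%. ROW summits flanked the peak on both sides within 5 kb at 123 peaks without ROW, 29.5% (25.3 to 34.0), and at 12.5% (11.2 to 14.0) of overlapping peaks. Over all BEAF-32 peaks on the arms this share was 15.97%. The ROW peak nearest to a peak without ROW was itself shared with another BEAF-32 peak in 47.2% of cases (42.5 to 52.0), close to the 44.3% (43.0 to 45.7) of all 5115 ROW peaks on the arms that overlapped BEAF-32.

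Strong ROW peaks were found 1 to 5 kb away far more often for BEAF-32 peaks without ROW than for overlapping ones. This comparison was chosen after the distances had been seen. It uses distance to ROW, as the choice did, and leaves out the ROW peaks that overlapping peaks overlap. It is therefore given as a description, and the part of the choice in it was not tested. A ROW peak of at least 8-fold that the BEAF-32 peak did not overlap, with its summit 1 to 5 kb away, was present for 19.6% of all BEAF-32 peaks on the arms. For peaks without ROW the count was 180 of 417, 43.2% (38.5 to 48.0), and for overlapping peaks 343 of 2290, 14.98% (13.6 to 16.5). The shares without and with ROW were 41.5% and 15.4% on 2L, 40.1% and 12.7% on 3L, and 47.4% and 16.6% on 3R. At 5 to 10 kb there was no such excess over the 3 arms together: 29.0% (24.9 to 33.5) of peaks without ROW and 32.7% (30.8 to 34.6) of overlapping peaks had a strong ROW peak there. The arms differed there. On 2L the shares were 38.2% (30.1 to 47.0) without ROW and 31.8% (28.4 to 35.4) with ROW. They were 17.6% (12.2 to 24.7) and 30.1% (26.9 to 33.5) on 3L, and 32.2% and 35.5% on 3R. At 10 to 15 kb the shares were 26.4% without ROW and 26.9% with ROW. On 2L they were 34.96% (27.1 to 43.7) without ROW and 26.2% (23.0 to 29.7) with ROW. The share on that arm was thus higher without ROW beyond 5 kb as well, but the intervals overlapped at both distances. With a floor of 16-fold on ROW, 8.87% of peaks without ROW and 1.62% of overlapping peaks had one at 1 to 5 kb, and 8.15% and 7.16% had one at 5 to 10 kb.

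The excess at 1 to 5 kb was present at every strength of the BEAF-32 peak. With the same floor of 8-fold on ROW, the shares without and with ROW were 36.4% and 11.9% for BEAF-32 peaks below 4-fold, 44.4% and 15.9% from 4-fold to 8-fold, 53.75% and 20.3% from 8-fold to 16-fold, and 42.5% and 13.8% at 16-fold or more. Overlapping peaks at a strong ROW peak rarely had another one 1 to 5 kb away. Where the overlapping peak's nearest ROW peak was itself at least 8-fold, a further one of that strength lay 1 to 5 kb away in 7.09% of 888 cases, against 31.5% at 5 to 10 kb. Restricting the overlapping class to the 1402 peaks whose nearest ROW peak was under 8-fold gave 19.97% (17.96 to 22.1) at 1 to 5 kb and 33.4% at 5 to 10 kb. With the floor of 8-fold, overlapping peaks thus had a strong ROW peak less often at 1 to 5 kb than at 5 to 10 kb. Peaks without ROW had one more often, although the range of 1 to 5 kb is the narrower. Their lead was small on 2L, at 41.5% and 38.2%. With the floor of 16-fold it was reversed on 3L, at 3.52% and 6.34%, but not on 2L or 3R. The labels do not say how the authors' peak caller set the local background around strong ROW peaks. Its part in this pattern and the part of the choice were not tested.

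Other BEAF-32 peaks were somewhat closer to peaks without ROW than to overlapping ones. The nearest other BEAF-32 summit lay a median of 4504 bp away for peaks without ROW (interquartile range 2533 to 9749) and 5785 bp away for overlapping peaks (2862.25 to 10214.2), a log2 difference of -0.36. It was -0.49 on 2L, -0.30 on 3L and -0.37 on 3R. Requiring ROW summits to be more than 5000 bp away turned the difference to 0.69, over 100 peaks without ROW. That limit also tends to remove peaks with a close BEAF-32 neighbour that overlaps ROW, while the overlapping peaks stayed unfiltered. The limit of 1000 bp can do the same over a shorter range, and one of 2000 bp gave -0.17. How far these limits set the difference in spacing was not tested. A neighbour within 2 kb was found for 15.3% of all BEAF-32 peaks, for 68 peaks without ROW (16.3%) and for 14.5% of overlapping peaks. The intervals of both classes overlapped, but the direction changed within that range. Within 1 kb the shares were 0.72% (0.24 to 2.09) without ROW and 2.71% (2.12 to 3.46) with ROW, against 2.67% of all BEAF-32 peaks. At 1 to 2 kb they were 15.6% without ROW and 11.8% with ROW. The part of the 1000 bp limit in this was not tested. Within 5 kb the shares were 55.2% (50.4 to 59.9) without ROW and 42.1% (40.1 to 44.2) with ROW, against 44.4% of all BEAF-32 peaks. Within 10 kb they were 75.3% and 74.4%. A step at 5 kb was seen in overlapping peaks of 16-fold or more, with 31 peaks at 4 to 5 kb, 106 at 5 to 6 kb and 95 at 6 to 7 kb. Overlapping peaks under 16-fold had none, with 133, 127 and 100 in the same intervals. The part of the peak caller's local background in this step was not tested. Peaks without ROW numbered 43 at 4 to 5 kb, 21 at 5 to 6 kb and 20 at 6 to 7 kb. Those of 16-fold or more numbered 9, 7 and 6, too few to show or deny a step. Those under 16-fold numbered 34, 14 and 14.

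The difference in spacing lay in the weaker classes of BEAF-32 strength. Below 4-fold the median spacing was 3990.5 bp without ROW and 5095 bp with ROW, and from 4-fold to 8-fold it was 3681 bp and 4921 bp. From 8-fold to 16-fold it was 4112.5 bp and 4403 bp. At 16-fold or more it was 6895 bp without ROW and 7005 bp with ROW, a log2 difference of -0.02. Peaks without ROW were not mainly neighbours of each other. Their nearest BEAF-32 neighbour was another peak without ROW in 65 cases, 15.6% (12.4 to 19.4), and a ROW-overlapping peak in 340 cases, 81.5%. For overlapping peaks the nearest neighbour lacked ROW in 16.03% of cases, and the share of peaks without ROW among all BEAF-32 peaks is 15.1%. The nearest neighbour had a median of 5.91-fold for peaks without ROW and 7.24-fold for overlapping peaks. BEAF-32 peaks of at least 8-fold lay 1 to 5 kb away for 22.1% (18.3 to 26.3) of peaks without ROW and 17.6% (16.1 to 19.3) of overlapping peaks. At 5 to 10 kb the shares were 26.6% (22.6 to 31.1) without ROW and 35.9% (33.9 to 37.8) with ROW. The neighbour was the stronger of the pair for 52.0% (47.2 to 56.8) of peaks without ROW and for 45.8% (43.8 to 47.9) of overlapping peaks. Over all BEAF-32 peaks it was the stronger for 47.4%. At 16-fold or more it was stronger for 5 of 73 peaks without ROW and for 105 of 767 overlapping ones.

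**Figure D3:**
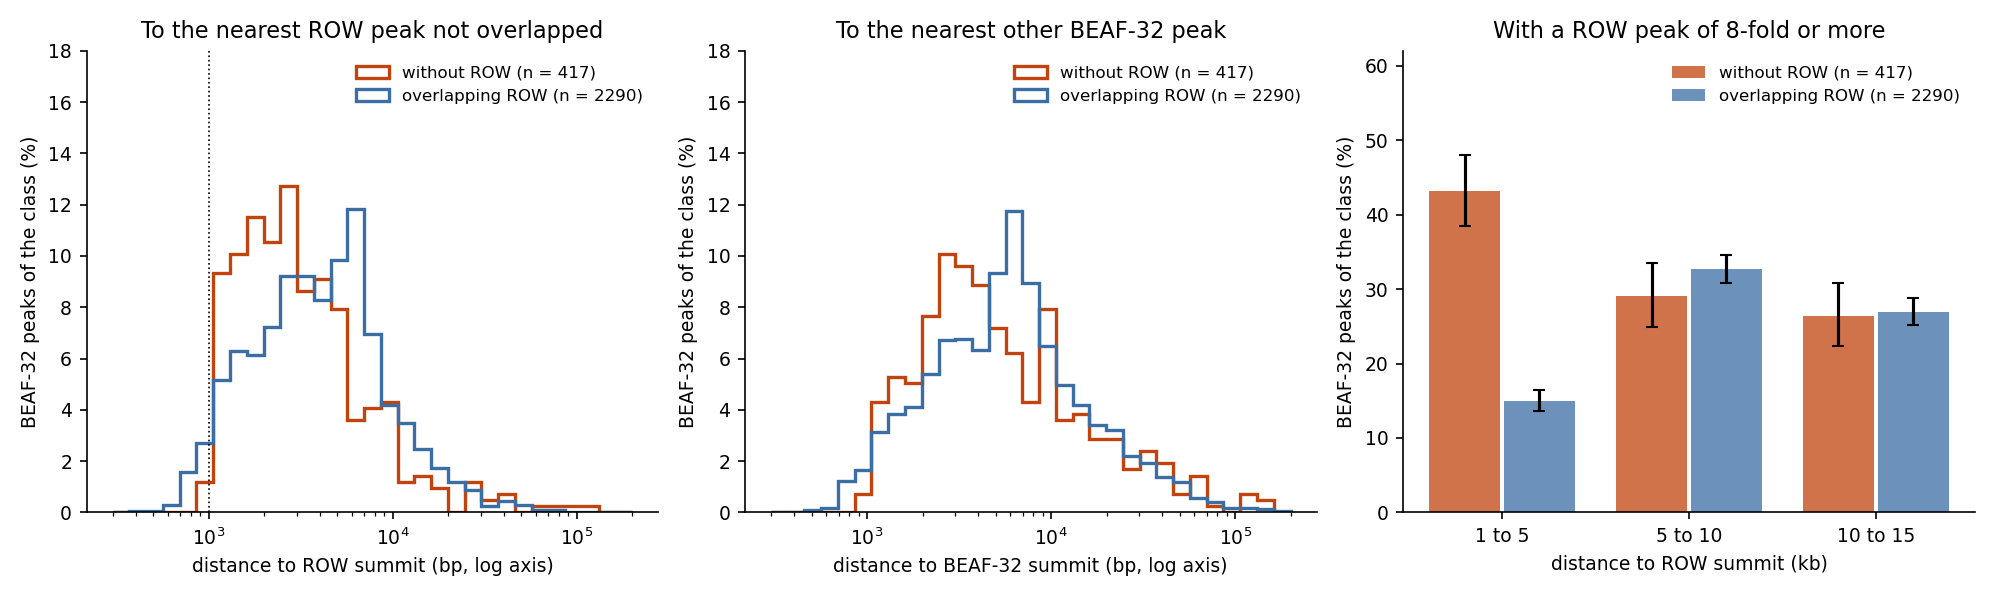
Left and middle, percentage of BEAF-32 peaks of each class (y axis) by distance in bp (x axis, log scale) to the nearest ROW summit of a peak not overlapped, and to the nearest other BEAF-32 summit; the dotted line marks 1000 bp, the limit that chose the peaks without ROW, which falls inside a bin. Right, percentage of each class with a ROW peak of at least 8-fold at 1 to 5, 5 to 10 and 10 to 15 kb, with 95% Wilson intervals; the first pair reads 43.2% without ROW and 14.98% with ROW.

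Runs of peaks without ROW were short. Reading along an arm, 305 of the 417 had a BEAF-32 peak of another class on either side, 80 formed 40 pairs, 24 formed 8 runs of 3 and 8 formed 2 runs of 4. Both runs of 4 were on 3L. The first, from 8593781 to 8682040 (dm3, as all positions here), held peaks of 5.98-fold, 11.2-fold, 8.63-fold and 2.34-fold, with 7 ROW summits in between. The second, from 13029619 to 13383329, held peaks of 24.6-fold, 9.44-fold, 6.84-fold and 4.03-fold with 3 ROW summits in between, and its last member, from 13383015, lay far from the first 3. The first run of 3, on 2L from 3163323 to 3320139, held peaks of 21.8-fold, 9.09-fold and 11.9-fold. Runs of 3 differed widely in span, the shortest being 7206 bp, on 2L from 7998690 to 8005895, and 7283 bp, on 3L from 18990353 to 18997635. In the second of these no ROW summit lay inside. Both were picked out after their spans were seen.

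The strongest single peaks without ROW reached values close to the top of the list. The strongest lay on 3L from 15603226 to 15603798 at 31.2-fold, with the nearest ROW summit 10222 bp away at a 3.16-fold peak. The next was on 2L from 7203998 to 7204638 at 30.7-fold, 4075 bp from a ROW peak of 9.85-fold. The third, on 3R from 24978919 to 24979498 at 30.0-fold, had the highest −log10 q among the 10 strongest, 3662.81, and a ROW peak of 11.4-fold only 1603 bp away. The top of the list thus includes both sites far from ROW and sites next to a strong ROW peak.

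The other 7 of the 10 strongest showed the same mixture. On 3L they lay from 21327972 to 21328595 (29.9-fold, ROW 8256 bp away) and from 14975614 to 14976173 (29.1-fold, 2973 bp). On 3R they lay from 7415628 to 7416242 (29.4-fold, 7847 bp), from 12012371 to 12012951 (29.3-fold, 18433 bp) and from 15861544 to 15862147 (28.9-fold, 4639 bp). On 2L they lay from 10743698 to 10744302 (28.6-fold, 6717 bp) and from 19114051 to 19114643 (28.3-fold, 6733 bp). All 10 were 560 to 641 bp wide. Their nearest BEAF-32 neighbour overlapped ROW in 8 cases, close to the 81.5% of all peaks without ROW. It was weaker than the peak itself in 9 of 10, which choosing the strongest peaks makes likely. The exception was the 3R peak at 12012371, whose neighbour 18358 bp away had 29.5-fold. The strongest 3 on each arm are all among these 10.

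**Figure D4:**
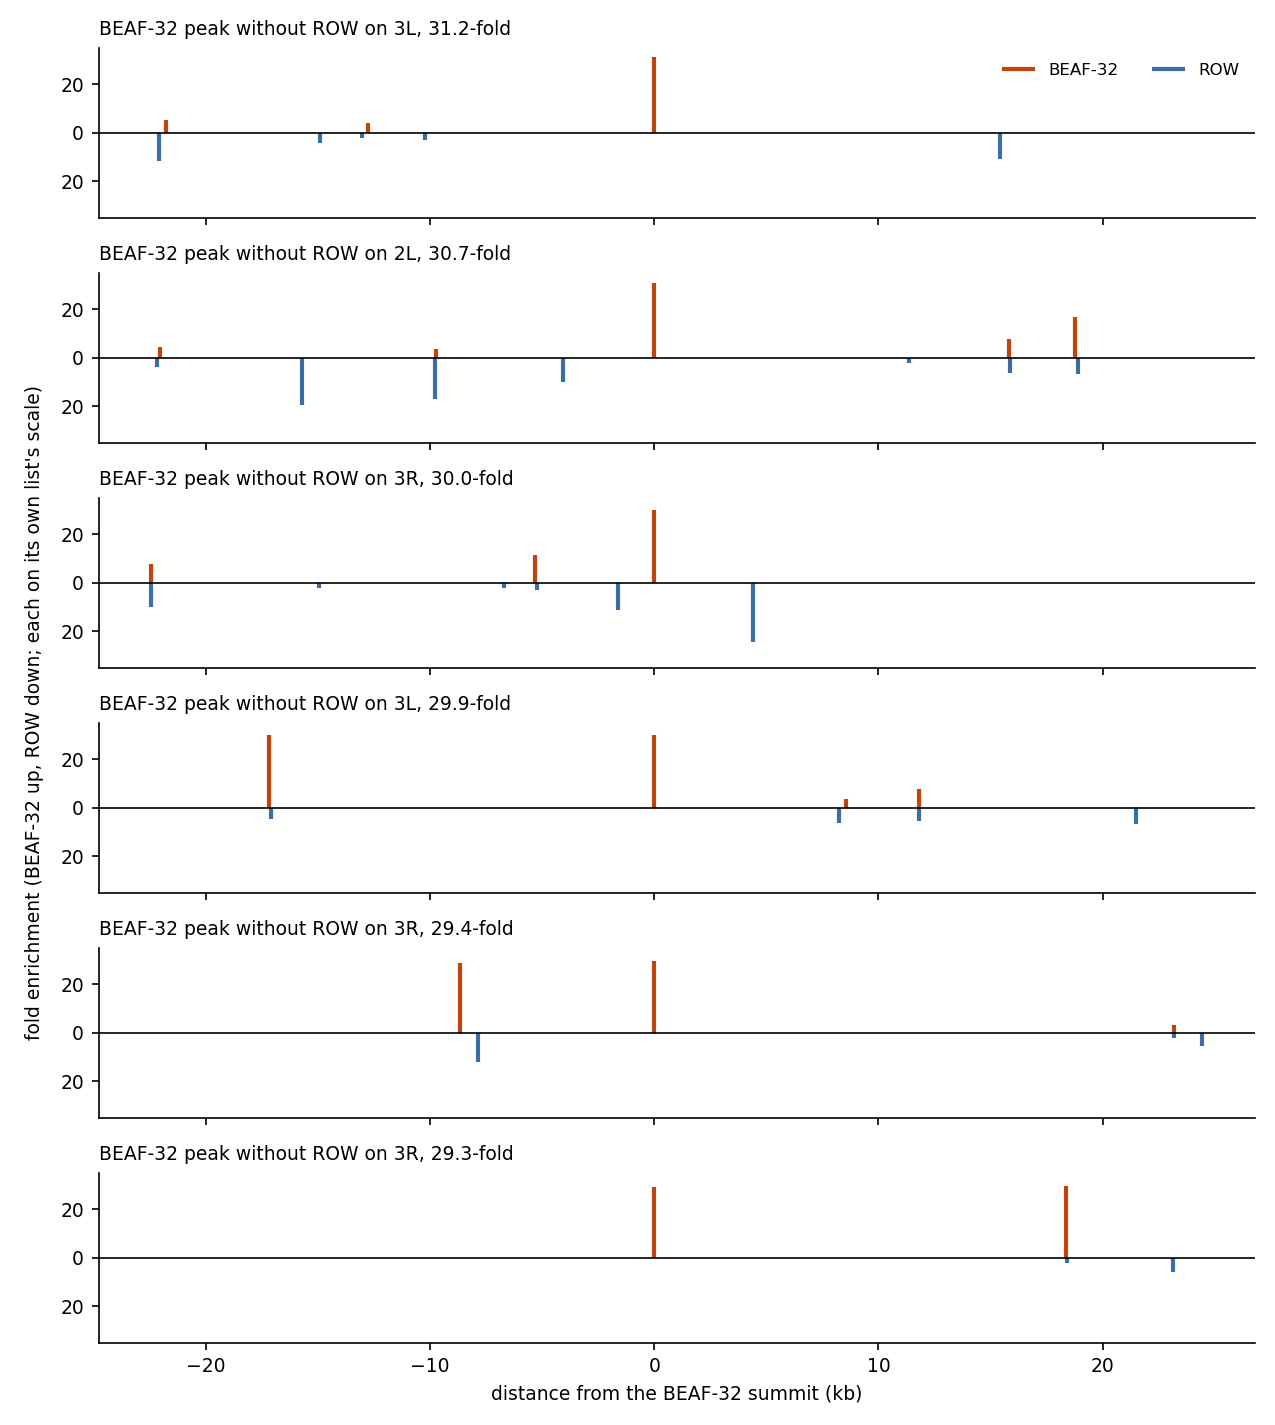
Peaks within 25 kb of the summits of the 6 strongest BEAF-32 peaks without ROW: x axis, distance from the summit in kb; y axis, fold enrichment of BEAF-32 peaks upward and of ROW peaks downward, each on the scale of its own list. The number of ROW peaks in these windows runs from 2 to 7 and that of other BEAF-32 peaks from 1 to 4, and most of those BEAF-32 peaks stand opposite a ROW peak.

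The 5 peaks farthest from ROW had fold enrichments of 2.82 to 11.8. The farthest lay on 3L from 10218274 to 10218655, with 3.62-fold and the nearest ROW summit 118879 bp away. It was followed by 3R from 3172232 to 3172507 (2.82-fold, 97039 bp), 3R from 16289827 to 16290191 (4.77-fold, 81102 bp), 3L from 12198926 to 12199455 (11.8-fold, 56941 bp) and 3L from 10935581 to 10935956 (4.49-fold, 44763 bp). These peaks were far from other BEAF-32 peaks as well, at 141034, 127249, 81375, 59927 and 43430 bp. Of all 34 peaks more than 10 kb from ROW, 5 reached 16-fold, 14.7% (6.45 to 30.1), close to the 17.5% of all peaks without ROW. Below 4-fold were 8 of the 34, 23.5% (12.4 to 40.0), against 42.8% (34.8 to 51.1) of those at 1 to 2 kb, and these intervals overlapped. The median distance of the 34 peaks to another BEAF-32 summit was 17619 bp (interquartile range 12142 to 40284.5), against 4504 bp over all peaks without ROW. Isolation from ROW and isolation from BEAF-32 went together, with Spearman's rho of 0.43 across the 417 peaks. The distances are linked, since 82.8% of BEAF-32 peaks overlapped ROW and a close one therefore mostly brings a ROW summit near. How far this link sets the values was not tested.

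Of the 5 peaks most isolated from other BEAF-32 peaks, 4 had 2.82-fold to 4.77-fold, below the median of 5.46, and 1 was strong. The 3R peak from 8045130 to 8045706 had 22.9-fold with its nearest BEAF-32 summit 130992 bp away, although a ROW peak of 14.2-fold lay at 1963 bp. The 3L peak from 10359287 to 10359752 (4.77-fold) and the farthest 3L peak at 10218274 were each other's nearest neighbour, at 141034 bp. The 3R peak from 6378334 to 6378686 had 4.20-fold with its nearest neighbour at 122601 bp. At the other extreme, the 5 peaks closest to another BEAF-32 summit had gaps of 929 to 1082 bp between summits and fold enrichments of 1.82 to 3.76, and in each case the neighbour overlapped ROW.

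The extremes of width and the edge of the choice were as follows. The widest were on 2L from 12003765 to 12004938 (1174 bp, 11.1-fold), on 2L from 7885129 to 7886288 (1160 bp, 27.1-fold) and on 3L from 102240 to 103328 (1089 bp, 4.58-fold). The narrowest 3 were 269 to 271 bp wide, at 1.87-fold to 3.34-fold. The 3 weakest, at 1.70-fold to 1.84-fold, lay 1373 to 2469 bp from ROW peaks of 5.23-fold to 7.69-fold. Just inside the limit of 1000 bp, all on 3L, were peaks at 1007, 1038 and 1041 bp from ROW with 2.99-fold, 23.7-fold and 27.2-fold. Just outside it were peaks at 995, 993 and 990 bp with 2.65-fold, 2.95-fold and 18.5-fold. Strong and weak peaks therefore stood on both sides of the limit.

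BEAF-32 peaks without ROW were spread along the arms much as BEAF-32 peaks are. They made up 15.3% (13.0 to 17.9) of BEAF-32 peaks on 2L, 15.7% (13.5 to 18.2) on 3L and 14.4% (12.4 to 16.6) on 3R, with 123, 142 and 152 peaks. That is 5.35, 5.80 and 5.45 per Mb, against 29.0, 30.3 and 31.6 overlapping peaks per Mb. Each arm was divided into 5 equal parts between its outermost peaks in both lists. Over the 3 arms together the share was 14.7%, 14.5%, 16.1%, 14.9% and 15.3% from the first to the last part. Within single arms it ranged from 8.33% (3.88 to 17.0) in the fourth part of 2L to 23.6% (16.9 to 31.8) in the third part of 3L. The part of 2L with 8.33% was also poor in BEAF-32, with 6 of 72 peaks without ROW and 15.7 BEAF-32 peaks per Mb, the lowest density of the 15 parts. The intervals of the lowest and the highest part just overlapped.

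In windows of 1 Mb the median number of peaks without ROW was 5, and 4 of 76 windows held none. The fullest was the first Mb of 3L with 14 peaks without ROW among 68 BEAF-32 peaks, followed by 2L from 10000001 to 11000000 with 12 of 68. Windows with 11 lay on 3L from 3000001 to 4000000, on 3L from 16000001 to 17000000 and on 3R from 19000001 to 20000000. These windows also held 58 to 68 BEAF-32 peaks, against a median of 33.5 per window, and their share without ROW was 17.2% to 20.6%. High shares also occurred in windows with few BEAF-32 peaks, picked out here by their share: 7 of 16 on 3L from 10000001 to 11000000 (43.75%), 9 of 25 on 2L from 4000001 to 5000000, 9 of 26 on 2L from 3000001 to 4000000 (34.6%) and 6 of 20 on 3L from 13000001 to 14000000. The 5 fullest windows were thus not those with the highest shares.

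**Figure D5:**
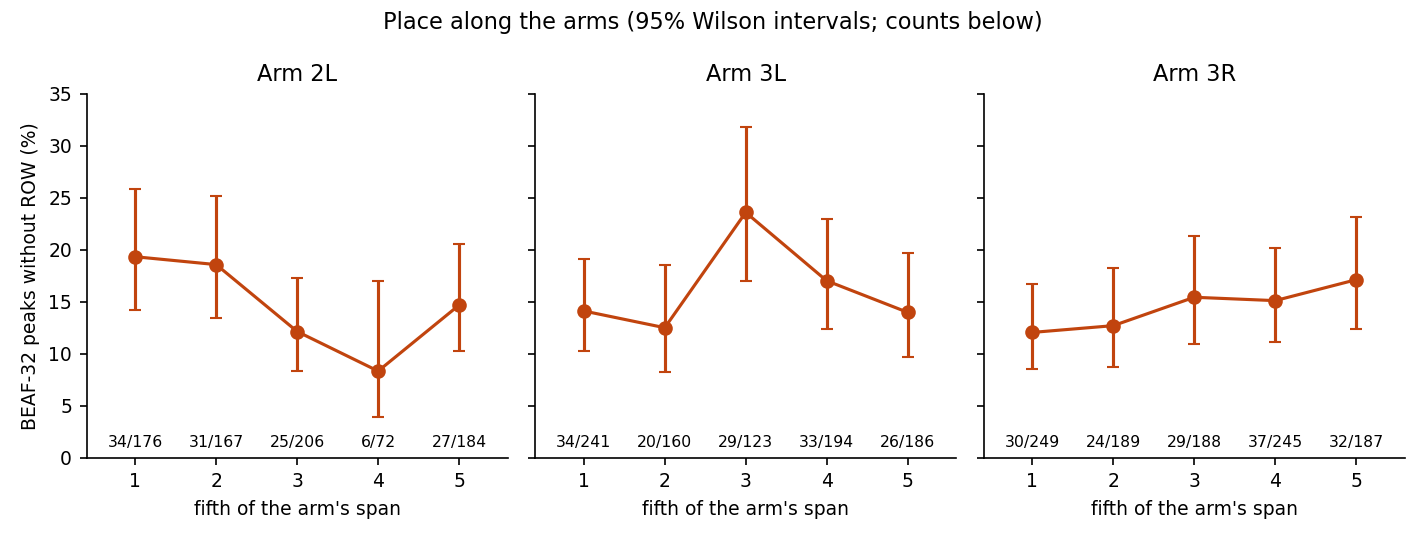
Percentage of BEAF-32 peaks without ROW (y axis) in each of 5 equal parts of arms 2L, 3L and 3R (x axis, from low to high coordinates), with 95% Wilson intervals; the numbers give peaks without ROW over all BEAF-32 peaks. The lowest value is 8.33% in the fourth part of 2L and the highest 23.6% in the third part of 3L.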

How the data were processed

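The submitters' processing notes name Bowtie2, SAMtools, MACS2, deepTools and the build dm3 but give neither version nor role. The control library and the pooling of samples are not given in the sources used here. Each deposited list has the 10-column narrowPeak layout without a header. Column 7 as deposited by the authors was read as the ratio (fold enrichment) at the summit, column 9 as −log10 q as the authors deposited it, and the deposited display score in column 5 was not used. The summit is start plus column 10, and positions count from 1. Fold enrichment was used to describe or rank peaks within its own list. Overlap needed 1 bp. Distances run between summits on the same arm. Medians, shares with 95% Wilson intervals and Spearman's rho were computed with pandas 2.3.3, scipy 1.17.1 and numpy 2.4.6 under Python 3.11.15, and the classification was tested on simulated data. The peaks and comparisons were chosen with earlier results of these data known. Peaks named are the strongest, weakest, widest, narrowest, most distant, closest and most isolated, those next to the 1000 bp limit and the longest runs. The planned CGATA and gene start comparison was not run, arm 2R is not analysed here, and gene positions and sequences are not used here.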

Additional observations from a re-analysis of the deposited data

Results flagged for a closer look

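Sequences outside the 3 arms also held BEAF-32 peaks that the same choice would take, in data that the comparisons did not use. The X held 186 of them among 776 BEAF-32 peaks, 24.0% (21.1 to 27.1), with a median fold enrichment of 5.87 against 12.7 at the 565 overlapping peaks. Chromosome 4 held 7 of 76, 9.21% (4.53 to 17.8), with medians of 2.34 and 6.61. The heterochromatic pieces, the unplaced scaffolds and the mitochondrial sequence together held 18 of 251, 7.17% (4.58 to 11.0), with medians of 2.67 and 3.42. On each of these sets the peaks without ROW had the lower median, as on the 3 arms. The cause of the different shares was not tested.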

How the results depend on the processing

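Alternative settings gave 82 recalculated values of the 8 main results, of which 9 were chosen after seeing the data. Of these values 52 stayed within a limit, 27 moved beyond it and 3 changed sign. For the share and the median ROW distance the limit was their 95% interval, and for the number of peaks 1.5 times. For the log2 differences it was the interval of the median without ROW, with the overlapping median held fixed. For strong ROW peaks it came from the interval of the share without ROW alone. For the 5 parts it was set by the interval width of the third part. The sign changes concern distances. With a ROW window of 5000 bp the log2 difference in spacing between BEAF-32 peaks was 0.69. This window also tends to remove peaks without ROW that have a close BEAF-32 neighbour overlapping ROW. The excess of strong ROW peaks at 1 to 5 kb, 28.2 percentage points, became -3.65 at 5 to 10 kb and -0.564 at 10 to 15 kb over the 3 arms together; with a ROW floor of 16-fold it was 7.26, and against overlapping peaks whose nearest ROW peak was under 8-fold 23.2. With no window the share without ROW was 17.2% and the median ROW distance 2452 bp. A window of 2000 bp gave 10.1%, 3894 bp and a spacing difference of -0.17. One of 5000 bp left 100 peaks, 3.61%, 8260 bp and a strength difference of -0.28. Using ROW peaks of −log10 q of at least 10 gave 630 peaks, 22.8%, 3438 bp and -0.14 for spacing. Using ROW peaks of at least 4-fold gave 1158 peaks, 41.85%, 4918 bp, -0.33 for width and -0.13 for spacing. The strength difference was -0.99 against peaks with 50% reciprocal overlap, -0.90 against those with a ROW summit within 100 bp, -1.29 by −log10 q and -0.0445 at middle width. There were 275 peaks without 3L and 265 without 3R, and the spread over the 5 parts was 6.04 percentage points without 2L, against 1.52. The causes were not tested. No paired analysis was possible because 1 list per antibody holds all its samples; for the same reason no replicate could be left out. The planned CGATA and gene start comparison was not run. Depth is unknown, so a missing ROW peak does not show that ROW was absent.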
